A study of Mus musculus with 64 samples.

Results

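The 10 genes described here encode the core of the inflammasome and pyroptosis pathway in the mouse macrophage: the inflammatory proteases Casp1 and Casp4, the sensors Nlrp3, Aim2, Nlrc4, Naip2, Naip5 and Mefv, the adapter Pycard (ASC) and the pore-forming protein Gsdmd. They were taken by name from the 55487 genes listed in the count files, and all 10 passed the filter on low counts that left 14537 genes for testing. RNA was sequenced from bone marrow-derived macrophages (BMMs) of Ahr+/+ and Ahr-/- mice, which carry or lack the aryl hydrocarbon receptor (AhR), a transcription factor activated by small molecules. The 64 libraries form 16 groups of 4. BMMs were exposed for 6 h to the vehicle DMSO (0.01%), to 1 µM benzo[a]pyrene (BaP) or to 10 µM indole-3-carbinol (I3C). Exposed cells were then activated with heat-killed Salmonella Enteritidis (hk S.E., 10000000 per ml) for 3 h or 20 h, and DMSO cells without hk S.E. at both times are called unactivated. By the study's methods, there were 4 mice of each genotype, aged 8 to 12 weeks. The female Ahr+/+ mice were C57BL/6JRj animals from a breeder, and the Ahr-/- mice were a C57BL/6 knockout line backcrossed in-house to C57BL/6JRj, so the genotypes were not stated to be littermates. All cells were grown for 6 days with macrophage colony-stimulating factor from L929 supernatant, and no ligand was given without hk S.E., so each ligand effect below is an effect in activated cells.

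An inflammasome is a platform assembled in the cytosol when a sensor meets a microbial product or a sign of damage. Nlrp3 responds to many disturbances of the cell, Aim2 binds cytosolic DNA, pyrin (encoded by Mefv) responds to blocked RhoA, and the NAIP proteins bind bacterial flagellin or secretion system proteins and then recruit Nlrc4. The sensors engage Casp1, often through Pycard, and Casp1 cleaves pro-IL-1β, pro-IL-18 and Gsdmd, while Casp4 (caspase-11) binds cytosolic lipopolysaccharide and cleaves Gsdmd directly. Transcription of Nlrp3 and Il1b after a Toll-like receptor signal is known as priming. Messenger RNA levels say nothing of assembly or cleavage of these proteins, and the values below are RNA levels only.

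Levels are CPM, each gene's counts relative to its library's total, scaled by the trimmed mean of M-values (TMM), and values given for single libraries are in the order of replicates 1 to 4. A gene is called changed at an adjusted p below 0.01 in edgeR's quasi-likelihood test, with the Benjamini-Hochberg adjustment over all 14537 genes. Counts at an unadjusted p under 0.05 are given without the share of all genes at that threshold, which was not counted. Counts assigned to genes ranged from 12152496 to 50644601 per library (median 24499165), apart from 1 Ahr+/+ unactivated 20 h library with 233047331. The 8 macrophage markers were counted in every library (summed level 18609 to 35732 CPM), whereas markers of T cells summed to at most 0.319 CPM, those of mast cells to at most 0.0915 CPM, those of B cells to at most 6.21 CPM and those of fibroblasts to at most 8.35 CPM. Of the 8 neutrophil markers, 5 passed the filter, Ly6g, Mpo and Elane stayed at or near 0 (at most 0.482 CPM), and Ngp (up to 56.4 CPM), Ltf (up to 27.7 CPM), Camp (up to 5.29 CPM), S100a8 and S100a9 were counted in every library. The summed level of the 8 was 106 to 273 CPM in activated cells at 3 h and 12.7 to 65.9 CPM in unactivated cells. The Ahr gene itself cannot check the genotype in whole-gene counts, since its mean was 6.63 CPM in Ahr-/- and 3.17 CPM in Ahr+/+ unactivated BMMs at 3 h and the counts do not show whether the transcript is functional. Ahrr, the AhR repressor and a direct AhR target, averaged 0.738 ± 0.0822 CPM in Ahr-/- and 5.63 ± 0.714 CPM in Ahr+/+ cells after 20 h of hk S.E. (SD, n = 4, adjusted p = 2.28e-15, edgeR). In these bulk samples fewer cells of a kind and less RNA per cell cannot be told apart.

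The members are spread over 8 chromosomes of GRCm38, and none lies on chromosome 12, where Ahr is found at 35497974 to 35535038. Casp1 (ENSMUSG00000025888.6, 5298517 to 5307265) and Casp4 (ENSMUSG00000033538.13, 5308828 to 5336783) are neighbours on the plus strand of chromosome 9. Naip2 (ENSMUSG00000078945.10, 100144063 to 100202092) and Naip5 (ENSMUSG00000071203.6, 100211739 to 100246323) are neighbours on the minus strand of chromosome 13. The NAIP genes are related copies that share some stretches of sequence, and by the default of the counting tool reads that match several places are not counted. Of all stretches of the read length in the annotated transcripts of Naip5, 11.4% also occur in transcripts of other genes, foremost Naip6, against 1.65% for Naip2 and 0% for each of the other 8 members. Levels of Naip5 are therefore more uncertain than those of the other members.

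The sequence before each transcription start was searched because several members rose together. RefSeq promoter sequences were at hand for 9 members, all but Gsdmd. In the 250 bases before the start, the consensus for NF-κB binding (κB) was present in 5.00% of 32851 mouse promoters, and among the members in those of Casp4 and Nlrp3. The core of the AhR response element, GCGTG, was present in 28.2% of all promoters and in that of Mefv. Neither the interferon element core GAAANNGAAA (2.98% of all promoters) nor the STAT element TTCNNNGAA (7.02%) was present in a member's 250 bases. Both strands were searched. The sequences that hold a match are printed 5′ to 3′ with the matches in capitals. They are Casp4 at chr9:5308599-5308848 (plus strand), with overlapping κB matches beginning 93 and 92 bases before the start and a further match 39 bases before it, Nlrp3 at chr11:59541319-59541568 (plus strand), with a κB match 186 bases before the start, and Mefv at chr16:3718125-3718374 (minus strand), with the AhR core on the opposite strand 103 bases before the start.
Casp4: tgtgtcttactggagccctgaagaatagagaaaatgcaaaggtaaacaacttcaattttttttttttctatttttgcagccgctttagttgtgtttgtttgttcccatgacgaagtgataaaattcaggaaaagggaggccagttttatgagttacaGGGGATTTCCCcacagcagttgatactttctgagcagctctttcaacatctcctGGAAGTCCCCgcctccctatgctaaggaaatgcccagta
Nlrp3: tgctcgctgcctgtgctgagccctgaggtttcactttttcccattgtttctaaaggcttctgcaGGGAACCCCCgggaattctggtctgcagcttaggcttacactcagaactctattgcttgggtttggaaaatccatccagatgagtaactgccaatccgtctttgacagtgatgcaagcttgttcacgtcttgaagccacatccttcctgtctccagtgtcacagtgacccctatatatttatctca
Mefv: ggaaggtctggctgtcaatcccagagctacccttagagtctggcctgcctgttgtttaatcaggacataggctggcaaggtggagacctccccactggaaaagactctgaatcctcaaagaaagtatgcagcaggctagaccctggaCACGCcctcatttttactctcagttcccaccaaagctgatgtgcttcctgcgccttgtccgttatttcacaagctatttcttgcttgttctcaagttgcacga
Casp4 and Nlrp3 have a second annotated start. That of Casp4 lies 11 bases downstream and its window holds the same matches, and that of Nlrp3 (window chr11:59542436-59542685) holds none. A match is a description of letters in a window and not evidence of binding.

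In unactivated Ahr+/+ BMMs at 3 h, the levels per kilobase of exon (RPKM, the scale on which genes can be set side by side) ran from 45.0 for Casp1, 29.7 for Gsdmd, 19.8 for Naip2, 19.1 for Pycard and 16.1 for Nlrp3 to 6.74 for Aim2, 6.60 for Naip5, 5.29 for Casp4, 2.79 for Nlrc4 and 1.73 for Mefv. By RPKM Casp1, which many inflammasomes engage, had the highest mean at rest, and Nlrp3 the fifth. After 3 h of hk S.E. the order of RPKM was Nlrp3 (303), Casp1 (261), Casp4 (79.2), Gsdmd (72.9), Aim2 (68.5), Naip2 (24.2), Pycard (22.9), Mefv (15.8), Naip5 (5.13) and Nlrc4 (1.93). The exon length used for Pycard, 3800 bases against 1497 for Casp1, includes long annotated isoforms, which lowers its RPKM. Whether Pycard or Casp1 stood higher at rest therefore cannot be read from these values.

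**Figure D1:**
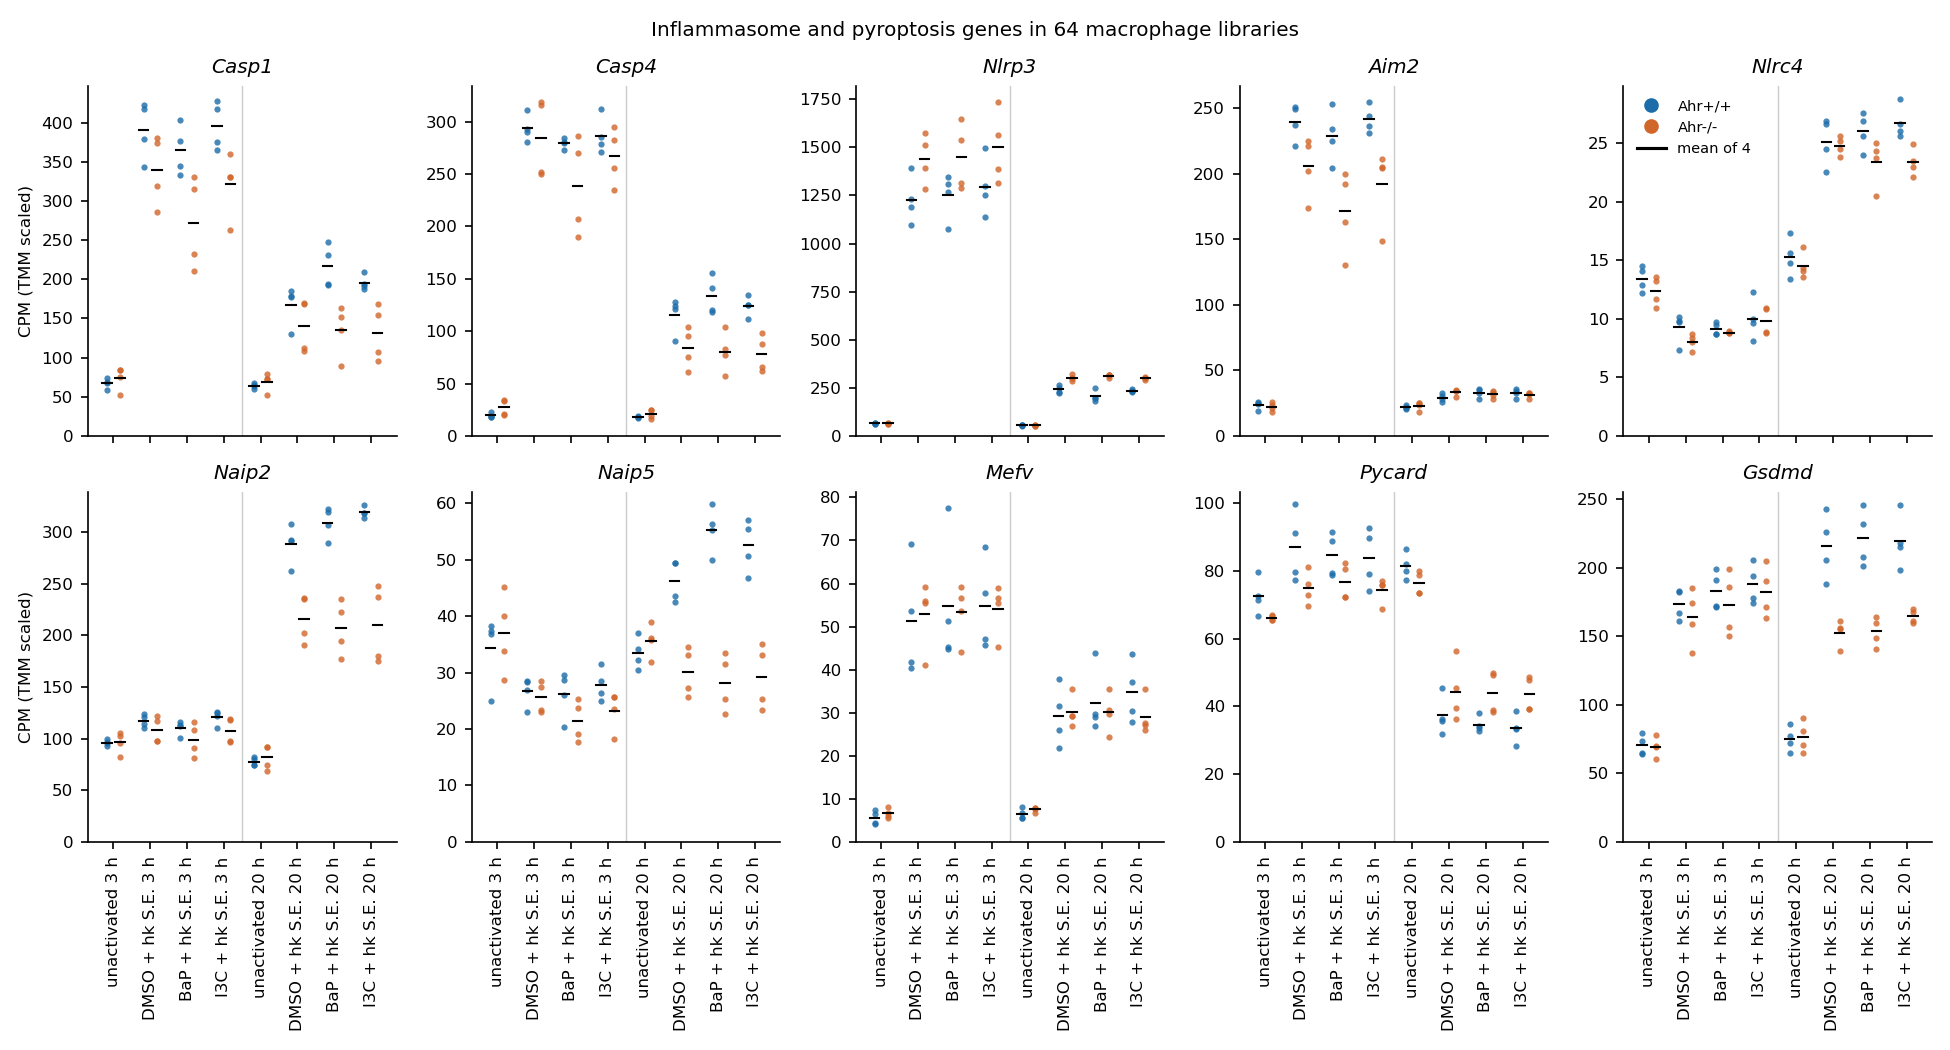
CPM (TMM scaled, axis from 0) of each of the 10 genes in the 8 conditions, with 4 Ahr+/+ (blue) and 4 Ahr-/- (orange) libraries each as points and their mean as a bar. Casp1, Casp4, Nlrp3, Aim2 and Mefv stand highest at 3 h of hk S.E., Naip2 and Nlrc4 at 20 h, and in Naip5, Naip2 and Gsdmd the Ahr+/+ points lie above the Ahr-/- points at 20 h of hk S.E.

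Activation with hk S.E. asked how bacterial products change these RNAs without any ligand. At 3 h, 6 of the 10 members rose and 1 fell in Ahr+/+ BMMs, where 24.2% of all tested genes rose and 32.3% fell. In Ahr-/- BMMs 6 rose and 2 fell (25.5% and 31.8% of all genes), and with a replicate block Naip2 was also called higher there (0.17, adjusted p = 0.00893). At 20 h, 9 rose and 1 fell in Ahr+/+ (29.9% and 28.7% of all genes), and 8 rose and 1 fell in Ahr-/- (28.3% and 26.0% of all genes). The median log2 fold change of the 10 genes in Ahr+/+ was 1.91 at 3 h and 1.46 at 20 h, against -0.10 and -0.00 over all genes. The members differed in timing, with an early group that peaked at 3 h (Nlrp3, Casp4, Aim2, Mefv, Casp1), a sustained gene (Gsdmd) and genes with their highest mean level at 20 h (Naip2, Nlrc4 and, in Ahr+/+, Naip5), while Pycard fell at 20 h. Marker sums of other cells moved with activation as well, the neutrophil sum at 3 h, as given above, and others at 20 h. In Ahr+/+ the dendritic cell sum was 0.691 to 1.53 CPM in unactivated and 20.3 to 39.6 CPM in activated cells at 20 h, and the macrophage sum was 25460 to 28848 and 18829 to 22840 CPM. The macrophage sum is mostly Lyz2, with a median of 21532 CPM over all libraries against 29187 CPM for the sum. It therefore does not describe the macrophage markers as a set. The part of these sums in the members' changes was not tested.

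Nlrp3, the sensor whose transcription is the textbook sign of priming, had the highest fold change of the 10 genes at 3 h. In Ahr+/+ libraries it stood at 60.5, 68.8, 68.2 and 64.4 CPM unactivated and at 1232, 1192, 1391 and 1096 CPM after 3 h of hk S.E., a log2 fold change of 4.23 ± 0.10 (SE, 18.8-fold, adjusted p = 1.31e-39, edgeR). The groups were far apart. In Ahr-/- libraries it went from 68.8, 69.8, 63.5 and 64.6 to 1510, 1576, 1393 and 1286 CPM (log2 fold change 4.43 ± 0.10, adjusted p = 2.69e-40). By 20 h the level had come down to 222, 251, 264 and 231 CPM in Ahr+/+, still 4.33-fold above the unactivated 51.9, 58.5, 56.2 and 57.2 CPM (adjusted p = 1.20e-27). The activation effect at 20 h was smaller than at 3 h by 2.12 ± 0.13 on the log2 scale in Ahr+/+ (adjusted p = 4.35e-21) and by 1.97 ± 0.13 in Ahr-/- (adjusted p = 7.74e-20).

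The inflammatory proteases rose side by side. Casp4 was at 18.1, 18.4, 19.3 and 22.6 CPM in unactivated and at 281, 293, 290 and 311 CPM in activated Ahr+/+ BMMs at 3 h (log2 fold change 3.91 ± 0.18, 15-fold, adjusted p = 1.58e-26). Casp1, already abundant at rest, went from 68.2, 68.7, 58.6 and 73.9 to 379, 422, 344 and 417 CPM (2.53 ± 0.18, 5.79-fold, adjusted p = 6.38e-19). At 20 h both had declined but stayed above the unactivated level, with log2 fold changes of 2.68 ± 0.17 for Casp4 and 1.39 ± 0.17 for Casp1 (adjusted p = 1.62e-20 and 2.01e-10). In Ahr-/- BMMs the 20 h fold changes were 1.97 ± 0.17 for Casp4 and 1.01 ± 0.17 for Casp1 (adjusted p = 1.27e-15 and 4.95e-07). Across the 16 group means the log2 levels of Casp1 and Casp4 had a Pearson's r of 0.99, a description over groups that share mice and culture.

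The cytosolic DNA sensor Aim2 had the most transient response. Its Ahr+/+ libraries stood at 25.4, 24.0, 19.0 and 26.1 CPM unactivated, at 237, 251, 221 and 249 CPM after 3 h and at 25.7, 30.2, 28.4 and 32.4 CPM after 20 h of hk S.E. The 3 h groups were separated by a log2 fold change of 3.34 ± 0.12 (10.2-fold, adjusted p = 1.06e-30), and at 20 h, against 20.9, 21.6, 22 and 23.5 CPM, only 0.41 ± 0.11 remained (1.33-fold, adjusted p = 0.00159). Without activated Ahr+/+ replicate 4 at 20 h the late rise was 0.35 with an adjusted p of 0.0105. The drop in the activation effect from 3 h to 20 h, by 2.94 ± 0.16 in Ahr+/+ and by 2.67 ± 0.16 in Ahr-/- (adjusted p = 4.90e-22 and 2.11e-20), was the largest in value among the members. Mefv, which encodes pyrin, was low at rest (4.14, 6.52, 7.45 and 4.41 CPM in Ahr+/+ at 3 h) and reached 41.8, 53.6, 69.2 and 40.3 CPM with hk S.E. (3.18 ± 0.21, adjusted p = 5.37e-20). At 20 h Mefv was at 21.8, 31.5, 37.8 and 26.1 CPM (4.55-fold, adjusted p = 1.09e-14). In both genotypes the decline between the times was called for Mefv, with log2 differences in the activation effect of -0.99 in each (adjusted p = 0.00170 in Ahr+/+ and 0.00155 in Ahr-/-).

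**Figure D2:**
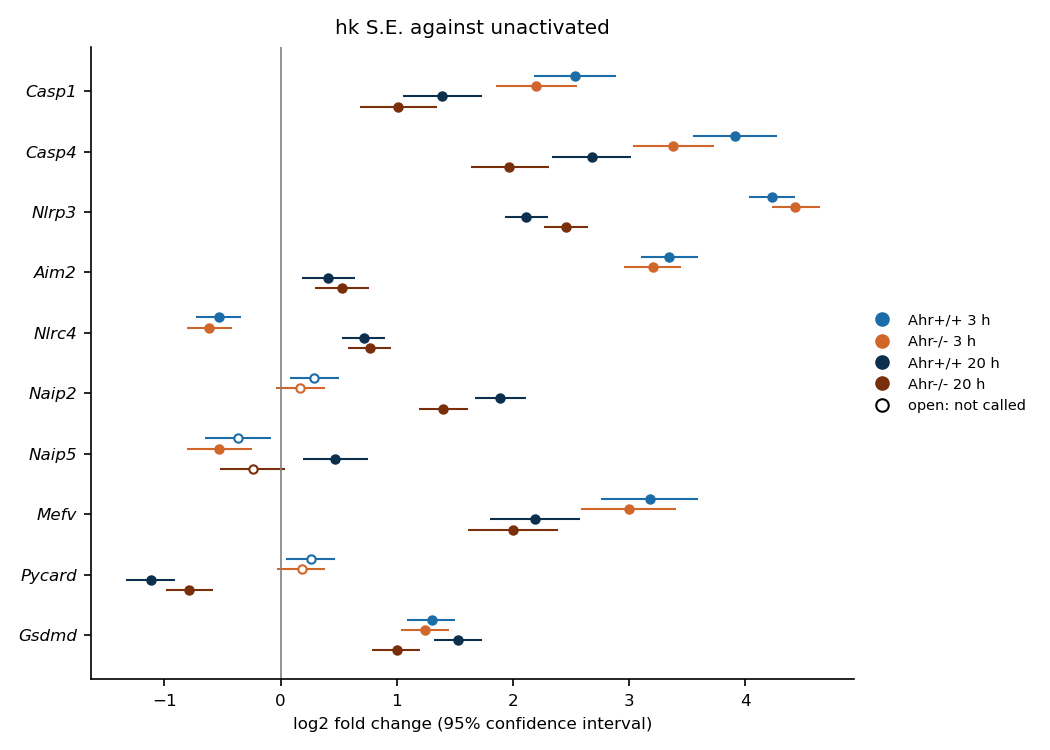
Log2 fold change of each gene with hk S.E. against unactivated cells of the same genotype and time, with 95% confidence intervals, and open points where the change was not called. The 3 h values of Nlrp3, Casp4, Aim2 and Mefv lie between 3.00 and 4.43, and Pycard is the member below 0 at 20 h in both genotypes with a call.

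Gsdmd, whose cleaved form opens pores in the plasma membrane, rose at both times. In Ahr+/+ it went from 64, 65.2, 79.7 and 73.4 to 167, 183, 161 and 182 CPM at 3 h (1.30 ± 0.10, adjusted p = 1.40e-16) and from 64.5, 77.3, 71.8 and 85.9 to 188, 206, 226 and 243 CPM at 20 h (1.53 ± 0.10, adjusted p = 2.06e-19). The activation effect did not pass the test for a difference between the times in either genotype (0.23 ± 0.14 in Ahr+/+ and -0.25 ± 0.14 in Ahr-/-, adjusted p = 0.163 and 0.141). Pycard, the adapter shared by most inflammasomes, stood at 71.5, 66.7, 72.7 and 79.7 CPM unactivated and at 79.6, 99.7, 77.2 and 91.2 CPM after 3 h (log2 difference 0.26 ± 0.10, adjusted p = 0.0251, not called, with overlapping groups), and it was called with RLE size factors, DESeq2, limma, a replicate block and a fit of only the groups compared (adjusted p from 0.00319 to 0.00817). At 20 h it fell from 82.1, 77.2, 79.9 and 86.4 to 31.9, 35.8, 45.3 and 36.4 CPM in Ahr+/+ (-1.12 ± 0.10, adjusted p = 4.52e-14), and from 78.7, 73.5, 73.4 and 80.0 to 45.3, 56.2, 36.4 and 39.5 CPM in Ahr-/- (-0.79 ± 0.10, adjusted p = 2.54e-09). Pycard was thus the member that moved down while the proteases, the sensors called at that time and the pore-forming gene moved up.

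The secretion system sensor Naip2 and its partner Nlrc4 stood highest at 20 h. Naip2 stood at 99.3, 96.7, 92.5 and 95.7 CPM unactivated and 121, 114, 124 and 110 CPM after 3 h in Ahr+/+ (log2 difference 0.29 ± 0.10, adjusted p = 0.0151, not called although the groups did not overlap). With a replicate block the call was made (adjusted p = 2.31e-05), as it was with RLE size factors, DESeq2, limma and a fit of only the groups compared (adjusted p from 1.96e-04 to 0.00402). At 20 h Naip2 rose from 74.3, 81.8, 80.4 and 74.9 to 292, 308, 291 and 262 CPM (1.89 ± 0.11, 3.71-fold, adjusted p = 2.00e-22). Nlrc4, the partner that the NAIPs recruit, first fell, from 12.9, 14.1, 12.2 and 14.5 to 7.38, 10.2, 9.83 and 9.70 CPM at 3 h (-0.53 ± 0.10, adjusted p = 3.69e-06). It then rose, from 13.4, 17.3, 14.8 and 15.6 to 24.5, 26.9, 26.6 and 22.5 CPM at 20 h (0.72 ± 0.09, adjusted p = 9.03e-10). Ahr-/- BMMs showed the same opposite signs for Nlrc4 (-0.62 ± 0.10 and 0.77 ± 0.09, adjusted p = 1.81e-07 and 1.58e-10).

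Naip5, the flagellin sensor, changed little in either direction. Ahr+/+ libraries held 36.9, 37.4, 24.9 and 38.3 CPM unactivated and 28.3, 26.9, 23.1 and 28.5 CPM with hk S.E. at 3 h (-0.37 ± 0.14, adjusted p = 0.0212, not called). With a replicate block this difference was called (adjusted p = 0.00173). At 20 h Naip5 rose in Ahr+/+ from 34.2, 37.0, 30.5 and 32.2 to 49.4, 49.4, 43.6 and 42.6 CPM (0.47 ± 0.14, adjusted p = 0.00259), a call that was lost without unactivated replicate 3 (0.43, adjusted p = 0.0114). In Ahr-/- it fell at 3 h from 45.2, 28.7, 40.1 and 33.8 to 27.5, 23.0, 28.6 and 23.3 CPM (-0.53 ± 0.14, adjusted p = 9.24e-04). That call was lost in a fit of only the groups compared (-0.47, adjusted p = 0.0230) and without unactivated replicate 1 (-0.42, 0.0123), activated replicate 2 (-0.42, 0.0206) or activated replicate 4 (-0.44, 0.0153). At 20 h Ahr-/- libraries held 31.8, 35.7, 36.2 and 38.9 CPM unactivated and 25.7, 27.2, 33.1 and 34.6 CPM activated (-0.24 ± 0.14, adjusted p = 0.125, not called).

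Without hk S.E. no member was called between the times. In unactivated BMMs, 0 of 10 were called between 3 h and 20 h in Ahr+/+ (3.31% of all genes were called higher and 2.77% lower) and 0 of 10 in Ahr-/- (3.52% and 3.46%). At an unadjusted p under 0.05 there were 2 members in Ahr+/+ (Nlrp3 and Naip2) and 5 in Ahr-/- (Casp4, Nlrp3, Nlrc4, Naip2 and Pycard). With a replicate block Naip2 was called in Ahr+/+ (-0.30, adjusted p = 6.48e-05) and Casp4 (-0.34, 0.00462), Nlrp3 (-0.27, 0.00168) and Naip2 (-0.25, 0.00111) in Ahr-/-, while DESeq2 called none of the 10 in either genotype. In activated Ahr+/+ BMMs all 10 were called between the times, 4 higher at 20 h and 6 lower (33.0% and 26.4% of all genes). In activated Ahr-/- BMMs 2 were higher and 6 lower (31.7% and 24.3%). The Ahr-/- activated DMSO libraries are of identifier series 15 at 3 h and 20 at 20 h, and with the series as a term the Mefv decline was not called (-0.65, adjusted p = 0.0337). The difference in the activation effect between the times was called for 3 higher and 6 lower in Ahr+/+ (26.5% and 21.3% of all genes) and for 2 higher and 6 lower in Ahr-/- (25.2% and 19.4%). The Gsdmd difference between activated Ahr+/+ groups (0.32 ± 0.10, adjusted p = 0.00474) was lost under RLE size factors (0.25, 0.0287), DESeq2 (0.25, 0.0255) and limma (0.24, 0.0302) and without any of 6 of the 8 libraries. Those were 3 h replicate 1 (0.22, adjusted p = 0.0700), 2 (0.27, 0.0267), 3 (0.20, 0.0926) and 4 (0.26, 0.0335) and 20 h replicate 3 (0.30, 0.0147) and 4 (0.26, 0.0318).

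The genotype comparison asked whether the loss of AhR changes these RNAs. Unactivated cells gave 0 calls among the 10 at 3 h (0.241% of all genes higher and 0.970% lower in Ahr-/-) and 0 at 20 h (0.220% and 0.482%). At 3 h 1 member had an unadjusted p under 0.05, Casp4 at 0.47 ± 0.16 (adjusted p = 0.147), and at 20 h 0 had, and DESeq2 called 0 at both times. After 3 h of hk S.E. 0 were called (1.22% and 1.61%), with 3 at an unadjusted p under 0.05 (Nlrp3, Nlrc4 and Pycard) and 0 by DESeq2. After 20 h of hk S.E. 4 of the 10 were called, 1 higher (5.06% of all genes were higher) and 3 lower (7.39%).

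The member higher in Ahr-/- at that point was Nlrp3, with 302, 322, 287 and 300 CPM against 222, 251, 264 and 231 CPM in Ahr+/+ (0.32 ± 0.09, 1.25-fold, adjusted p = 0.00536). Every Ahr-/- library lay above every Ahr+/+ library. Naip5 was lower, at 25.7, 27.2, 33.1 and 34.6 against 49.4, 49.4, 43.6 and 42.6 CPM (-0.62 ± 0.14, 0.652-fold, adjusted p = 7.80e-04), and so was its neighbour Naip2, at 202, 191, 236 and 235 against 292, 308, 291 and 262 CPM (-0.42 ± 0.10, 0.749-fold, adjusted p = 0.00226). Neither gene's groups overlapped. Gsdmd was at 155, 156, 161 and 139 CPM in Ahr-/- and 188, 206, 226 and 243 CPM in Ahr+/+ (-0.50 ± 0.10, 0.709-fold, adjusted p = 1.96e-04), again without overlap. Casp4 (-0.46 ± 0.16, adjusted p = 0.0313) and Pycard (0.25 ± 0.10, adjusted p = 0.0864) did not pass. Casp1, Aim2, Nlrc4 and Mefv differed by -0.27 to 0.19 on the log2 scale, with adjusted p from 0.240 to 0.918.

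Calls for Nlrp3 and Naip2 depended on single libraries, and all but that for Naip5 on the series of the library identifiers. Nlrp3 was not called without Ahr+/+ replicate 1 (0.28, adjusted p = 0.0335) or 4 (0.30, 0.0220) or without Ahr-/- replicate 1 (0.32, 0.0130), 2 (0.29, 0.0265) or 4 (0.32, 0.0112). Naip2 was not called without Ahr+/+ replicate 2 (-0.38, 0.0120) or without Ahr-/- replicate 1 (-0.39, 0.0126) or 2 (-0.36, 0.0188). Naip5 and Gsdmd were called in all 8 such fits. With no filter on low counts Nlrp3 was not called (0.33, 0.0155). The identifiers of the libraries fall into series whose meaning the labels do not state, and all 4 Ahr+/+ libraries of this comparison belong to series 15 and all 4 Ahr-/- libraries to series 20. Genotype and series cannot be told apart within these groups. With the series as a term, estimated from other groups that hold several series, Naip5 was called (-0.90, 7.53e-04), whereas Nlrp3 (0.32, adjusted p = 0.0998), Naip2 (-0.44, 0.0454) and Gsdmd (-0.31, 0.149) were not. In a fit of only these 8 libraries 0 of the 10 were called, with adjusted p from 0.0105 to 0.0302 for the 4 genes.

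The BaP and I3C groups, cultured from the same mice and in the same series, gave further libraries for this comparison, which was added after the data were seen. At 20 h 7 members were called in the BaP groups, 2 higher (11.5% of all genes) and 5 lower (11.8%), and 7 in the I3C groups, 2 higher (7.47%) and 5 lower (8.17%). Both sets were Nlrp3 and Pycard higher and Casp1, Casp4, Naip2, Naip5 and Gsdmd lower in Ahr-/-. Nlrp3 differed by 0.61 ± 0.09 with BaP and 0.34 ± 0.09 with I3C, and Naip5 by -0.97 ± 0.14 and -0.84 ± 0.14. At 3 h 1 member was called in the BaP groups, Aim2 (-0.42 ± 0.11, adjusted p = 0.00903; 2.70% of all genes were higher and 2.18% lower), and 0 in the I3C groups (1.14% and 1.71%), where the smallest adjusted p was 0.0638 (Aim2, -0.33 ± 0.11) and 2 members had an unadjusted p under 0.05. Over all 12 activated libraries of each genotype at 20 h, Nlrp3 ranged from 182 to 264 CPM in Ahr+/+ and from 287 to 322 CPM in Ahr-/-. Naip5 ranged from 42.6 to 59.9 and from 22.7 to 35.1 CPM, Naip2 from 262 to 326 and from 175 to 248 CPM, and Gsdmd from 188 to 246 and from 139 to 170 CPM. The ranges of these 4 genes, the ones called in the DMSO groups, did not overlap, whereas those of Casp4 (90.2 to 156 and 57.0 to 104 CPM) and Pycard (28.3 to 45.3 and 36.4 to 56.2 CPM) did. The DMSO libraries on which these 4 were called are among the 12, so their separation was in part fixed in advance. The share of all genes with ranges apart in this way was not counted. The 12 libraries of a genotype were taken to come from 4 mice, and genotype and series coincide in them.

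**Figure D3:**
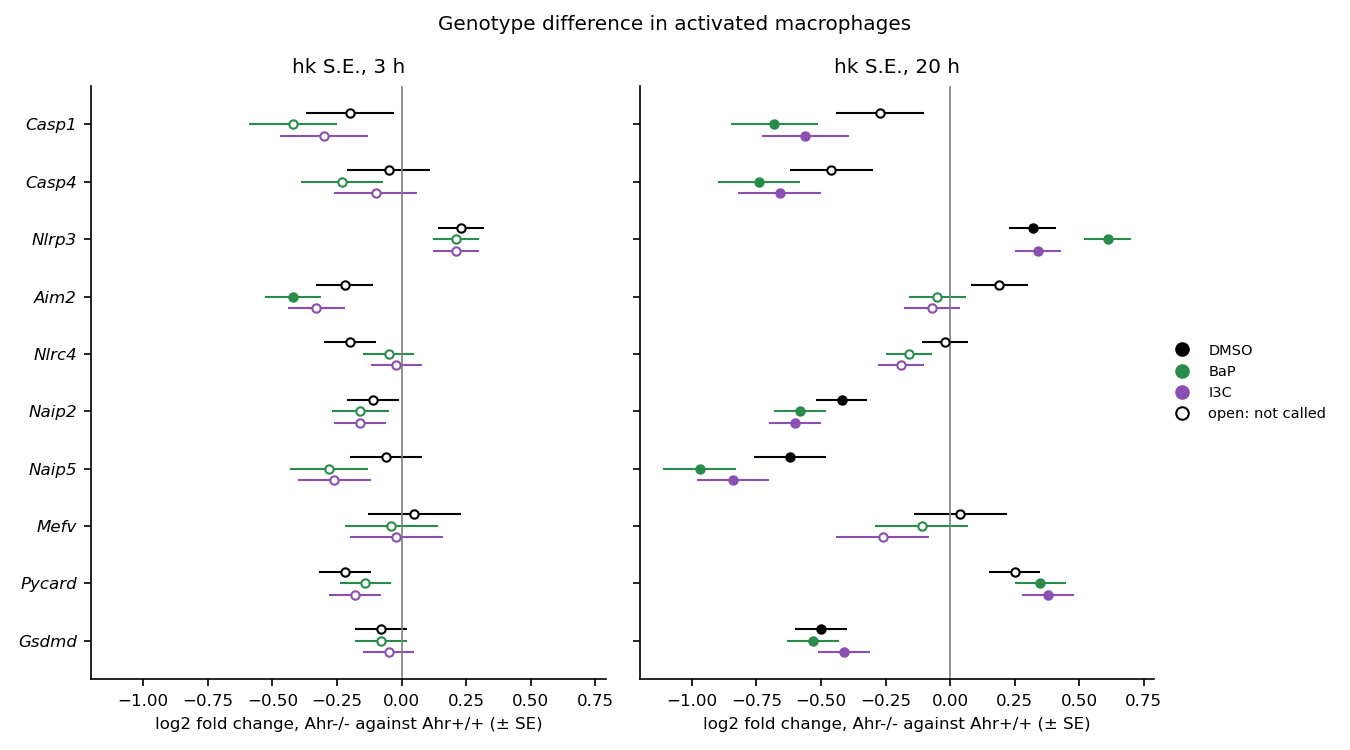
Log2 fold change of Ahr-/- against Ahr+/+ (± SE) in hk S.E. activated cells at 3 h (left) and 20 h (right) for DMSO, BaP and I3C groups, with open points where the difference was not called. At 20 h Nlrp3 and Pycard lie right of 0 and Naip5, Naip2, Gsdmd, Casp4 and Casp1 left of 0 in all 3 conditions.

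Markers of other cells moved with the genotype at the same point. The summed level of the 5 dendritic cell markers, of which 3 passed the filter, was 20.3 to 39.6 CPM in Ahr+/+ and 3.82 to 8.54 CPM in Ahr-/- DMSO libraries after 20 h of hk S.E., nearly all of it Ccr7, a chemokine receptor that activated macrophages can also express. Of the others, Zbtb46 was at 0 in 1 of the 64 libraries and at most 1.23 CPM, Flt3 was at 0 in 17 and at most 1.20 CPM, and Xcr1 and Siglech, which define dendritic cell subsets, were at 0 in 51 and 53 and at most 0.161 CPM. The macrophage marker sum, mostly Lyz2 as given above, was 18829 to 22840 CPM in Ahr+/+ and 20145 to 32147 CPM in Ahr-/-. In the BaP groups at 3 h, where Aim2 was called, the neutrophil sum was 183 to 224 CPM in Ahr+/+ and 109 to 118 CPM in Ahr-/-, and the dendritic cell sum was 2.55 to 7.06 and 0.914 to 1.67 CPM. In the I3C groups at 3 h, without a call for Aim2, these sums were 171 to 273 and 106 to 135 CPM, and 3.13 to 4.52 and 0.820 to 2.05 CPM. In the activated DMSO groups at 3 h, also without a call, they were 111 to 261 and 115 to 118 CPM, and 1.75 to 3.87 and 1.09 to 1.69 CPM. The part of these sums in the differences above was not tested.

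Whether the response to hk S.E. itself depended on AhR was tested as the difference between the genotypes' activation effects. At 3 h 0 of 10 were called (0.0138% of all genes), with 1 at an unadjusted p under 0.05 (Casp4, -0.52 ± 0.23, adjusted p = 0.730) and 0 by DESeq2. At 20 h 0 were called at 0.01 (4.41% of all genes), although 6 had an unadjusted p under 0.05. The share of all genes at that unadjusted threshold was not counted. The activation effect in Ahr-/- differed from that in Ahr+/+ by -0.53 ± 0.14 for Gsdmd (adjusted p = 0.0105), -0.71 ± 0.20 for Naip5 (0.0134), -0.49 ± 0.15 for Naip2 (0.0244), -0.70 ± 0.23 for Casp4 (0.0373), 0.35 ± 0.12 for Nlrp3 (0.0697) and 0.34 ± 0.15 for Pycard (0.154). With the replicate number within each genotype as a block, 5 of these were called, with adjusted p of 4.24e-05 for Casp4, 1.51e-05 for Naip2, 1.25e-04 for Naip5, 4.32e-04 for Gsdmd and 0.00547 for Nlrp3. DESeq2 called 3 (Naip2, Naip5 and Gsdmd) and limma on the VST values 2 (Naip5 and Gsdmd). The count was 1 or 2 without any of 7 single libraries. It was 2 without Ahr-/- unactivated replicate 1 and 1 without Ahr-/- unactivated replicate 3 or 4, Ahr-/- activated replicate 3 or 4, Ahr+/+ activated replicate 1 or Ahr+/+ unactivated replicate 4, the deeply sequenced library.

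Neither BaP nor I3C changed a member by the test in any of 8 comparisons with DMSO. For BaP the share of all genes called was 0.0482% in Ahr+/+ at 3 h, 0.0275% in Ahr-/- at 3 h, 0.234% in Ahr+/+ at 20 h and 0.0138% in Ahr-/- at 20 h. For I3C it was 0.131%, 0.0206%, 0.509% and 0.206% in the same order. The 80 log2 differences ran from -0.32 to 0.37, their 95% confidence intervals from -0.66 to 0.70, and the smallest adjusted p was 0.246. The comparison does not show that the ligands had no effect, since each interval gives the differences that these data leave possible. At an unadjusted p under 0.05 there were 4 values, and DESeq2 called 0 members in these comparisons.

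Of those 4, the lowest adjusted p belonged to Nlrp3 in Ahr+/+ BMMs at 20 h, with 197, 182, 247 and 196 CPM with BaP and 222, 251, 264 and 231 CPM with DMSO (-0.24 ± 0.09, adjusted p = 0.246). The groups overlapped. I3C at its higher dose gave 227, 235, 246 and 236 CPM there. In the same BaP comparison Casp1 was at 193, 231, 194 and 248 CPM against 179, 177, 130 and 185 CPM (0.37 ± 0.17, adjusted p = 0.408). The DMSO group holds a low replicate 3, but every BaP library lay above every DMSO library, with or without it. With I3C Casp1 ranged there from 187 to 209 CPM, also above the DMSO libraries. The share of all genes with groups apart in this way was not counted. The others were Aim2 with BaP in Ahr-/- at 3 h (-0.26 ± 0.11, adjusted p = 0.787) and Nlrc4 with I3C in Ahr-/- at 3 h (0.29 ± 0.10, adjusted p = 0.425). The difference of ligand effects between the genotypes was called for 0 members for BaP at 3 h (0.0138% of all genes) and at 20 h (0%) and for I3C at 3 h (0%) and 20 h (0%). Of these 40 differences 1 had an unadjusted p under 0.05 (Nlrp3 with BaP at 20 h, 0.29 ± 0.12, adjusted p = 0.928). BaP and I3C were given at different doses, so they are set side by side here and not compared. The paper, using DESeq2 at an FDR of 0.01, lists Casp1 among the AhR-dependent genes raised with BaP at 20 h. DESeq2 as run here on all 64 libraries gave Casp1 0.37 in Ahr+/+ (adjusted p = 0.327). It called 90 genes in that comparison, far fewer than the paper counts for BaP at 20 h. The cause of this difference was not tested.

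**Figure D4:**
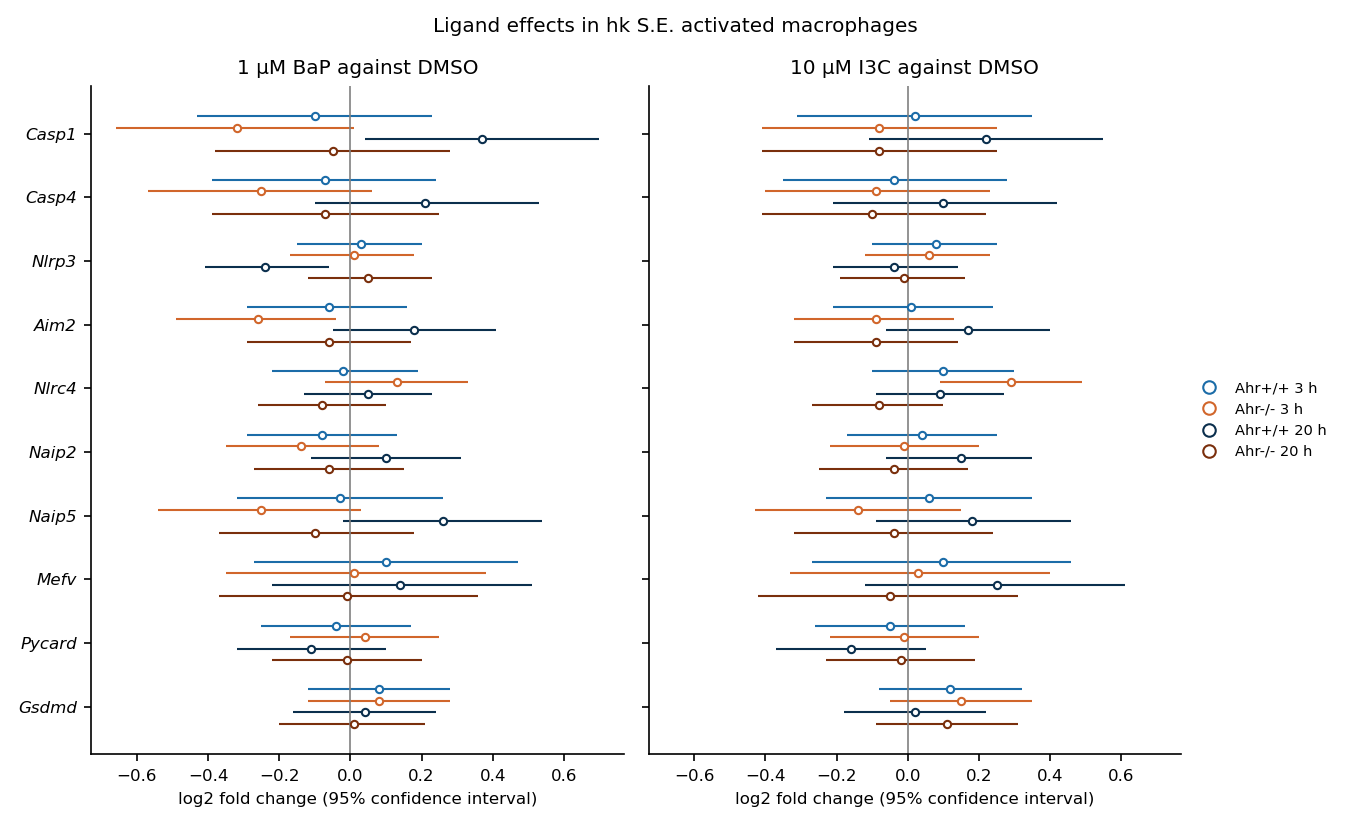
Log2 fold change of each gene with BaP (left) or I3C (right) against DMSO in hk S.E. activated cells, with 95% confidence intervals, for each genotype and time. Every point is open (not called), and all lie between -0.32 and 0.37.

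Other genes of the pathway were described from a list of 41, of which 38 passed the filter. With hk S.E. in Ahr+/+ BMMs 21 rose and 8 fell at 3 h, and 17 rose and 9 fell at 20 h (the shares of all genes stand with the members above). In Ahr-/- 20 rose and 10 fell at 3 h, and 16 rose and 12 fell at 20 h. The medians of the 38 log2 fold changes in Ahr+/+ were 0.79 at 3 h and 0.16 at 20 h. For ligands 0 of the 38 were called in each of the 8 comparisons. At an unadjusted p under 0.05 there were 9 for BaP in Ahr+/+ at 20 h, including all 3 tested genes for pores and membrane rupture, where the median over the 38 was 0.25 against 0.00 over all genes. In the other 7 comparisons there were at most 4, and the share of all genes at this threshold was not counted. The absence of calls differs from the paper for some of these genes. The paper marks Irf1 as significantly raised in Ahr+/+ BMMs at 20 h with BaP and with I3C. It also names Trim30a among genes raised upon AhR activation. The cause of this difference was not tested.

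The interleukin-1 family cytokines Il1b, Il18 and Il1a and the antagonists Il1rn and Il18bp, 5 genes, all rose at both times in Ahr+/+. Il1b, which encodes pro-IL-1β, averaged 5.55 ± 1.30 CPM unactivated and 4127 ± 295 CPM with hk S.E. at 3 h (log2 fold change 9.52, adjusted p = 3.97e-29). At 20 h it averaged 1729 ± 176 CPM in Ahr+/+ and 4603 ± 2102 CPM in Ahr-/- (SD, n = 4, log2 difference 1.41, adjusted p = 6.64e-05), and Il1a differed the same way (1.71, adjusted p = 9.46e-09). Il18 rose strongly at 3 h and weakly at 20 h in Ahr+/+ (3.25 and 0.76, adjusted p = 3.96e-23 and 7.06e-05). The receptor antagonist Il1rn rose by 4.40 at 3 h and 4.98 at 20 h on the log2 scale (adjusted p = 9.73e-20 and 1.65e-21).

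Among 6 tested other sensors in Ahr+/+, 1 rose and 3 fell at 3 h (24.2% and 32.3% of all genes). At 20 h 2 rose and 3 fell (29.9% and 28.7%). Zbp1, a sensor of Z-form nucleic acids, rose by 3.94 and 5.27 on the log2 scale at the respective times (adjusted p = 7.14e-22 and 3.53e-26). Nlrp1b fell at both times (-2.75 and -4.55, adjusted p = 1.50e-17 and 8.63e-26), and Nlrp10 fell at 20 h (-3.76, adjusted p = 4.07e-17), from 4.07 ± 0.368 to 0.297 ± 0.0627 CPM. Naip1 was near the detection limit, with means of 0.875 CPM unactivated and 0.0626 CPM with hk S.E. at 3 h and of 0.609 and 2.1 CPM at 20 h (adjusted p = 2.15e-05 and 1.14e-04), and it shares sequence with the other NAIPs.

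Among other caspases, Casp8, which acts in cell death and inflammatory signalling, rose at both times in Ahr+/+ (1.33 at 3 h and 0.26 at 20 h, adjusted p = 1.02e-20 and 0.00512). At 3 h Casp12 rose from 0.0555 to 2.23 CPM, a low level throughout (adjusted p = 2.27e-11). Of the 3 tested genes for pores and membrane rupture, Mlkl, the effector of necroptosis, rose at both times (2.77 and 2.91, adjusted p = 4.58e-26 and 6.20e-27), Ninj1, which ruptures the membrane after pore formation, rose at 3 h (1.03, adjusted p = 8.48e-09), and Gsdme fell at 3 h (-1.68, adjusted p = 1.51e-09).

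Of 9 cofactors and activators 4 rose and 3 fell at each time in Ahr+/+. Of all genes 24.2% rose and 32.3% fell at 3 h, and 29.9% rose and 28.7% fell at 20 h. The guanylate-binding proteins and Gm12250 (Irgb10), which open bacterial membranes to Casp4 and Aim2, rose the most. Gbp5 changed by 10.35 and 6.55, Gbp2 by 7.53 and 6.58 and Gm12250 by 5.76 and 2.79 on the log2 scale at 3 h and 20 h (adjusted p from 2.76e-33 to 9.42e-15). P2rx7, the ATP receptor that triggers Nlrp3, fell at both times (-1.69 and -1.47, adjusted p = 2.42e-26 and 3.04e-24). The 3 transcription factors Irf1, Irf2 and Irf8 rose at 3 h (5.22, 1.43 and 2.2, adjusted p = 1.76e-37, 2.67e-21 and 1.95e-18), and at 20 h Irf1 was higher by 1.90, Irf2 lower by -0.29 and Irf8 at -0.29 without a call (adjusted p = 1.21e-20, 0.00249 and 0.0784). Of the 3 death kinases and adapters, Ripk3 fell at 20 h (-2.15, adjusted p = 1.00e-14), while Fadd fell at 3 h (-1.07) and rose at 20 h (0.32, adjusted p = 8.85e-12 and 0.00733). Of the 5 inhibitors Tnfaip3 (A20) rose by 5.29 and 3.96 (adjusted p = 5.24e-43 and 1.56e-38), Trim30a by 2.95 and 2.47 (adjusted p = 1.24e-13 and 2.05e-11), and Serpinb1a, an inhibitor of caspase activation, fell at 20 h (-3.68, adjusted p = 2.23e-13).

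**Figure D5:**
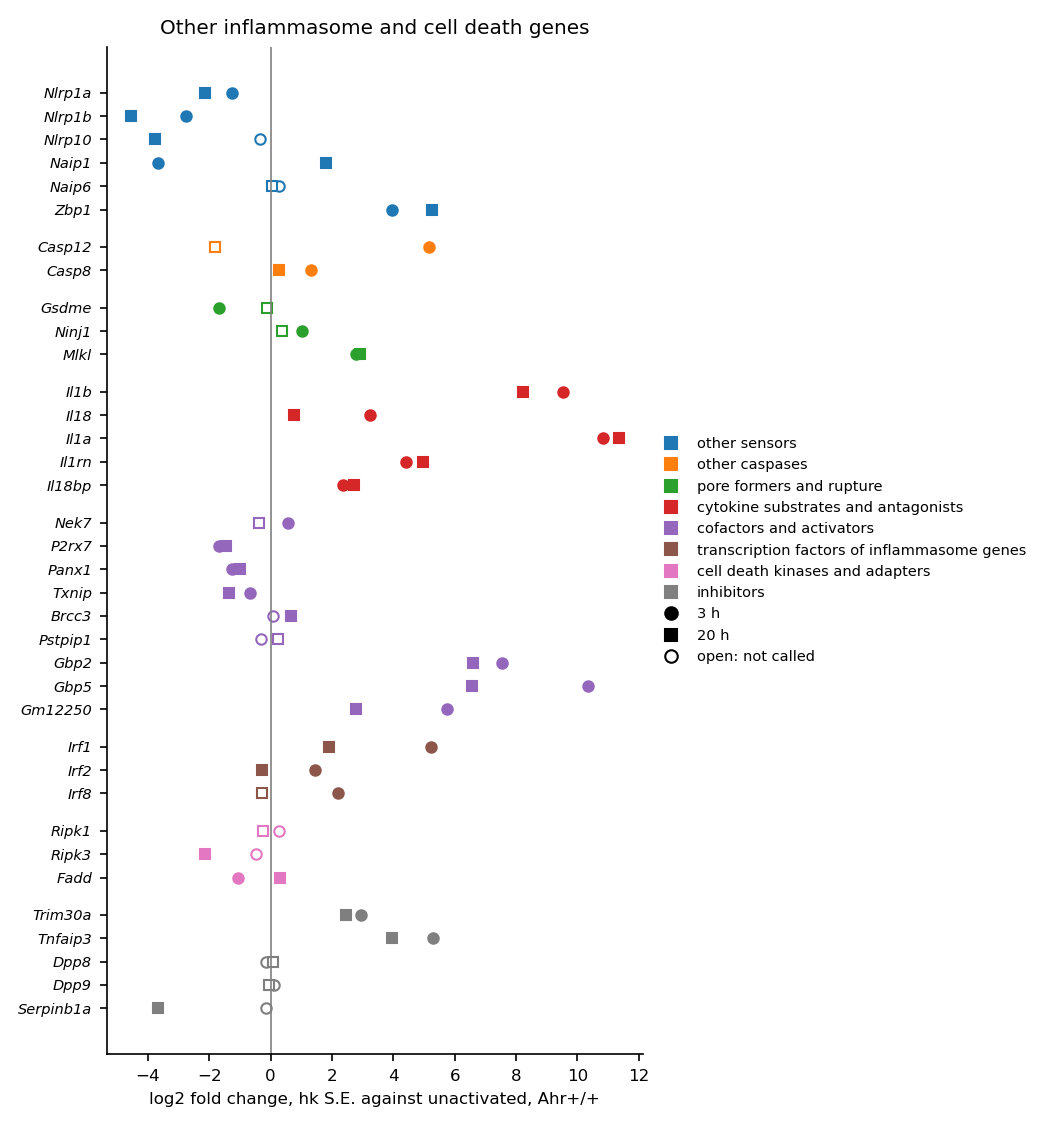
Log2 fold change with hk S.E. against unactivated Ahr+/+ BMMs for tested genes of the wider pathway, by role (colour), at 3 h (circles) and 20 h (squares), with open symbols where the change was not called. Il1a, Gbp5 and Il1b lie farthest right, and Nlrp1b, Nlrp10 and Serpinb1a farthest left.

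Between genotypes after 20 h of hk S.E., 9 of the 38 were called, 3 higher and 6 lower in Ahr-/- (5.06% and 7.39% of all genes), and the activation effect differed for 3, all lower in Ahr-/- (4.41% of all genes differed either way). Among the latter, Irf1 differed by -0.66 and Irf2 by -0.46 (adjusted p = 0.00490 and 0.00906), and the third, Il18bp, the antagonist of IL-18, was named after its values were seen (-1.16, adjusted p = 0.00390). Between the genotypes themselves at that point Irf1 differed by -0.58 (adjusted p = 1.58e-04), Mlkl by -0.42 (0.00836), Gsdme by -1.04 (5.43e-05), Gbp2 by -0.95 (0.00367) and Il1rn by -1.14 (7.23e-04).

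Over the 16 groups, each member's mean levels were ordered and neighbours compared by the ranges of their 4 libraries. Of the 15 neighbouring pairs, the ranges overlapped in 11 for Nlrp3, 12 for Naip2, 13 for Casp1, Casp4 and Nlrc4, 14 for Aim2, Mefv, Pycard and Gsdmd and 15 for Naip5. The separations fell mainly between activation states and times: for Aim2 between the 6 activated 3 h groups and the rest, and for Mefv and Gsdmd between the 12 activated groups and the 4 unactivated ones. For Nlrp3 and Naip2 the genotypes were also apart in activated cells at 20 h. Ligand groups were apart from DMSO for Casp1 (I3C in activated Ahr+/+ at 20 h) and Nlrc4 (BaP in activated Ahr-/- at 3 h). How often neighbouring groups overlap over all genes was not counted. The genes whose group means had the highest Pearson's r with a member over the 16 groups, among all 14537 genes, were Nod2 (0.998) for Nlrp3, Slfn8 (0.998) for Casp4, Tiparp (0.997) for Casp1, Xrn2 (0.999) for Aim2, Cflar (0.996) for Mefv, Tapbpl (0.996) for Gsdmd, Ahcyl1 (0.995) for Naip2, Akr1b3 (0.994) for Pycard, Fkbp15 (0.988) for Nlrc4 and Zkscan1 (0.971) for Naip5. Among the members the lowest r was between Naip2 and Pycard (-0.94). These values describe groups that share mice and batches of culture.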

How the data were processed

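RNA-seq libraries of 64 BMM cultures were grouped by GEO's labels of genotype, ligand, activation and time. Per the labels and methods, the authors sequenced stranded mRNA libraries, ran bcl2fastq 2.19.0.316, aligned with HISAT2 2.1.0 to mm10 and counted reads per gene with htseq-count (HTSeq 0.9.1), and deposited the raw counts. The authors also deposited a table of log2-scale variance-stabilised (VST) values, used only as an alternative with limma. The 5 entries that name no gene held 19.2% to 25.1% of each library's counts and were left out.

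From the counts, edgeR 4.0.16 in R 4.3.3 fitted all 64 libraries together by quasi-likelihood, estimating 16 group means for each of 14537 genes (filterByExpr, minimum count 10, TMM), with Benjamini-Hochberg adjustment within each of 28 comparisons and calls at an adjusted p below 0.01. CPM used TMM library sizes, and log2 CPM a prior count of 2. RPKM used exon lengths of GENCODE M21. Alternatives were RLE size factors, no filter, only the groups compared, a replicate block, the identifier series, DESeq2 1.42.0, limma 3.58.1, a threshold of 0.05 and leaving out each library. The main step was tested on simulated data. Promoter sequences came from RefSeq (GRCm38.p6).

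Replicate numbers were taken to mark the 4 mice of each genotype. Deviations from group means correlated above 0.1 in 23 of 24 same-number pairs in Ahr-/- (median 0.404) and in 14 of 24 in Ahr+/+ (median 0.133). No pair of libraries within a group was a duplicate, and pairs across groups were not compared. Library totals of 12152496 to 233047331 counts limit the precision for low genes.

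The 10 members and the lists were chosen with earlier results of these data known. Genes named were all members, at most 4 per role of the wider list with the largest change with hk S.E. in Ahr+/+ among those called, the genes most like each member over the group means, and Ahr and Ahrr. Values of some genes counted in the wider pathway list are not reported here.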

Additional observations from a re-analysis of the deposited data

Results flagged for a closer look

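Of 160 groups of 4 libraries examined (10 genes in 16 groups), 9 held a library whose gap to its nearest neighbour, as a share of the group's range, exceeded Dixon's 95% critical value for 4 values, and chance flags about 1 in 20 groups. In activated Ahr+/+ DMSO cells at 20 h replicate 3 was low for both proteases, with a share of 0.865 for Casp1 (130 CPM against 177 to 185 CPM) and 0.838 for Casp4 (90.2 against 121 to 128 CPM). Aim2 was low in activated Ahr-/- DMSO cells at 20 h, replicate 2 (0.862, 29.7 against 34.3 to 35.0 CPM), in Ahr-/- I3C cells at 20 h, replicate 1 (0.879, 28.1 against 32.1 to 32.7 CPM), and in Ahr-/- I3C cells at 3 h, replicate 2 (0.913, 149 against 204 to 211 CPM). Naip5 was low in unactivated Ahr+/+ cells at 3 h, replicate 3 (0.912, 24.9 against 36.9 to 38.3 CPM), and Nlrc4 in activated Ahr+/+ DMSO cells at 3 h, replicate 1 (0.849, 7.38 against 9.70 to 10.2 CPM). Nlrp3 was low in Ahr-/- BaP cells at 20 h, replicate 1 (0.850, 302 against 316 to 319 CPM), and Pycard in Ahr-/- I3C cells at 3 h, replicate 4 (0.856, 68.6 against 75.8 to 77.1 CPM).

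The effect of hk S.E. differed between 3 h and 20 h by a test of that difference for 9 genes in Ahr+/+ and 8 in Ahr-/-. The log2 difference (20 h minus 3 h) was -1.14 in Ahr+/+ and -1.18 in Ahr-/- for Casp1, -1.23 and -1.41 for Casp4, -2.12 and -1.97 for Nlrp3, -2.94 and -2.67 for Aim2, -0.99 and -0.99 for Mefv and -1.38 and -0.96 for Pycard. It was above 0 for Nlrc4 (1.25 and 1.38) and Naip2 (1.60 and 1.22) in both genotypes, and for Naip5 in Ahr+/+ (0.83).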

How the results depend on the processing

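Of 73 calls of members over the 28 comparisons, RLE size factors lost 1, no filter on low counts 1, a fit of only the groups compared 5, the identifier series as a term 4, DESeq2 1 and limma on the VST values 1, and no direction was reversed under any of these. The replicate number as a block within each genotype could be fitted for all but the comparisons between genotypes, in which the number is nested. It lost 0 of 69 calls and added 13. The block raised calls over all genes as well, as from 8222 to 9109 with hk S.E. in Ahr+/+ at 3 h.

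The activation effect by genotype at 20 h, with 0 members called as reported, had 1 with RLE, 5 with the replicate block, 1 with the series term, 3 with DESeq2, 2 with limma and 4 at an adjusted p of 0.05, and 0 to 2 when leaving out single libraries. Over all genes 641 were called as reported, 1505 with the block, 516 with the series term and 942 with DESeq2. The genotype difference after 20 h of hk S.E., 4 as reported, had 1 with the series term, 0 in a fit of only those groups, 7 in the BaP groups and 7 in the I3C groups, and 2 to 4 when leaving out single libraries. At 3 h of hk S.E. it had 1 in the BaP groups against 0. Between 20 h and 3 h in unactivated cells, 0 as reported, the block gave 1 in Ahr+/+ and 3 in Ahr-/-, the threshold of 0.05 gave 1 in each, and a fit of only those groups gave 1 in Ahr+/+. Over all genes the block called 1941 in Ahr+/+ and 2088 in Ahr-/-, against 883 and 1015 as reported. The cause of these changes was not tested. The BaP and I3C settings were chosen after the data were seen.

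The confidence intervals rest on the spread among the 4 libraries of a group, pooled over all 16 groups. The fit holds no term for the mouse and treats libraries of 1 mouse as independent, although there were only 4 mice per genotype. RLE moved the median of all genes by at most 0.11 on the log2 scale.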

Other observations

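Among the other genes of the pathway, several differed between the genotypes, and those not already described were named after their values were seen. Il1rn, the interleukin-1 receptor antagonist, was lower in Ahr-/- in all 4 DMSO conditions. The log2 difference was -1.39 ± 0.26 in unactivated cells at 3 h, -1.36 ± 0.26 in unactivated cells at 20 h, -1.04 ± 0.25 after 3 h and -1.14 ± 0.25 after 20 h of hk S.E. (edgeR, adjusted p = 8.47e-04, 0.00137, 0.00671 and 7.23e-04). Txnip, a thioredoxin-binding protein linked to Nlrp3 activation, was higher in unactivated Ahr-/- BMMs at 3 h (0.42 ± 0.08, adjusted p = 0.00160). After 3 h of hk S.E., Gsdme, Irf8 and Casp8 were lower in Ahr-/- (-1.22 ± 0.27, -0.73 ± 0.15 and -0.36 ± 0.08, adjusted p = 0.00223, 0.00121 and 0.00327). After 20 h Nlrp1a was higher in Ahr-/- (0.69 ± 0.17, adjusted p = 0.00183).

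Replicates of Ahr-/- differed from each other in a repeated way. In all 8 Ahr-/- groups replicates 3 and 4 held more Casp4 than replicates 1 and 2, as in unactivated cells at 3 h with 21.1, 20.3, 33.2 and 34.4 CPM. The same held in 7 of 8 groups for Casp1 and for Naip2, against 1 of 8 Ahr+/+ groups for each of the 3 genes. The opposite order, with replicates 3 and 4 below 1 and 2, was found in 5 of 8 Ahr-/- groups for Nlrp3 and for Pycard and in 4 for Gsdmd, and in 4 of 8 Ahr+/+ groups for Naip2 and for Naip5. The groups share the replicate numbers and are not independent. Across the 12 activated Ahr-/- libraries at 20 h the coefficient of variation was 23% for Casp1 and 21% for Casp4, against 3.66% for Nlrp3.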
